A study of Mus musculus with 7 samples.

Results

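Red pulp macrophages of the spleen recycle iron from old red cells, and 9 genes of that pathway were followed across every library of this study. They were taken by symbol from knowledge of the pathway, with earlier results of these data known, and all 9 were among the 17920 genes listed. They are Spic, Cd163, Hmox1, Slc11a1, Fth1, Ftl1, Slc40a1, Trf and Tfrc. Whole spleens were taken from C57BL/6 mice of 8 weeks after an intraperitoneal injection of 20 mg/kg lipopolysaccharide (LPS), a component of the bacterial outer membrane that drives acute inflammation. The genotype is wild type or GdX-/-, a loss of the X-linked gene Ubl4a, which encodes a small ubiquitin-like protein also called GdX. The labels write the male genotype as GdX-/Y in one place and GdX-/- in another, and they do not describe the allele. There were 2 wild-type and 2 GdX-/- libraries at 90 min after LPS, and 2 wild-type and 1 GdX-/- library at 6 h, from 4 wild-type and 3 GdX-/- mice. All groups had received LPS, no spleen without LPS was analysed here, and no level before the injection can be given.

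Macrophages of the red pulp engulf worn-out red cells and split the heme with heme oxygenase. The freed iron is either stored in ferritin or passed to the blood through ferroportin, where transferrin binds it and carries it to cells that bear the transferrin receptor, chiefly erythroblasts. In inflammation the hormone hepcidin removes ferroportin from the cell surface, and macrophages can also lower its transcript, so that iron is held back from microbes. Several of these genes, among them the ferritins, Trf, Tfrc and Hmox1, are also expressed by other cells, so a whole-spleen level is not that of macrophages alone.

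Ferritin and the transferrin receptor are the textbook case of control by iron at the level of RNA. Iron regulatory proteins bind a short hairpin, the iron responsive element, in the 5′ UTR of ferritin mRNA, where binding blocks translation, and in the 3′ UTR of Tfrc mRNA, where binding protects the transcript from decay. FPKM measures the transcript, so of these effects only the protection of Tfrc could be seen in such values. The 5′ UTR of ferroportin mRNA is known to carry one too. The UTRs of 6 members, Spic, Cd163, Slc11a1, Fth1, Ftl1 and Tfrc, were searched on GRCm38 in 1 annotated transcript each for the hairpin, with its bulged C, a stem of 5 pairs and the loop CAGTGN. The search found 1 element in Fth1, 1 in Ftl1 and 4 in Tfrc, and none in the other 3. They are shown because the levels of ferritin and receptor transcripts are reported below beside this shared control. The capitals mark the bulged C and the loop, letters are DNA, and each runs 5′ to 3′ on the strand of its gene.
Fth1, 5′ UTR, chr19:9982732-9982760, plus strand: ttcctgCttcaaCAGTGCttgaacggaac
Ftl1, 5′ UTR, chr7:45459779-45459807, minus strand: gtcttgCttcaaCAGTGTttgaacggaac
Tfrc, 3′ UTR, chr16:32631219-32631247, plus strand: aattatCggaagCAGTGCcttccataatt
Tfrc, 3′ UTR, chr16:32631598-32631626, plus strand: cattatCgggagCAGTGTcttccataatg
Tfrc, 3′ UTR, chr16:32631663-32631691, plus strand: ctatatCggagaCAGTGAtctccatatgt
Tfrc, 3′ UTR, chr16:32631710-32631738, plus strand: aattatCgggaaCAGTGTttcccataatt

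Values are FPKM, the fragments counted for a gene per kilobase of its transcript and relative to all those mapped in that library. Depth, read back from the lowest values, came to between 18500000 and 20300000 fragments per library, so it was close to even. The share of globin transcripts in the summed FPKM ran from 7.73% to 30.9%, and differences between the replicates of wild type followed transcript length, with Spearman's rho across 11180 genes of -0.45 at 90 min and -0.59 at 6 h. The genotype differences followed length too, with rho of 0.43 at 90 min and 0.32 at 6 h. Ubl4a did not separate the genotypes at 90 min (4.03 and 5.69 FPKM in GdX-/-, 5.62 and 7.50 FPKM in wild type) and at 6 h held 11.88 and 14.01 FPKM in wild type and 10.56 FPKM in the single GdX-/- library. Gm44504, an overlapping entry, lay between 0.66 and 1.86 FPKM in the GdX-/- libraries and between 14.5 and 51.1 FPKM in wild type. The libraries differed by genotype in the adult beta globin genes as well: Hbb-b1, which laboratory strains carry or lack and which was picked out after its values were seen, held 6.70 to 13.8 FPKM in the 4 wild-type libraries and 16577 to 44998 FPKM in the 3 GdX-/- libraries. The labels give C57BL/6 for both, and in every genotype comparison below a difference of strain background and the loss of Ubl4a cannot be told apart. Tests used limma on log2(FPKM + 1) over the 11378 genes with a mean of at least 1 FPKM, which all 9 members passed, and a gene is called when the adjusted p is under 0.05. The p-values measure the spread between these libraries, and fewer cells of a type and less RNA per cell cannot be told apart in whole spleen.

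Per unit of transcript length, the 9 genes differed widely in abundance. Fth1 and Ftl1, the heavy and light chains of ferritin, stood at ranks 51 and 52 of the 17920 genes by mean FPKM. Hmox1 (rank 346), Spic (rank 504), Trf (rank 1599) and Tfrc (rank 1916) followed, then Slc11a1 (rank 2738) and Slc40a1 (rank 5164), and Cd163 (rank 10644) was the lowest. Over the 7 libraries Slc40a1 varied most, by 3.46 on the log2(FPKM + 1) scale between its lowest and highest library, followed by Trf (2.75) and Slc11a1 (1.96). Hmox1 had the smallest range, 0.84, and Ftl1 the smallest SD over the libraries, 0.31.

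**Figure D1:**
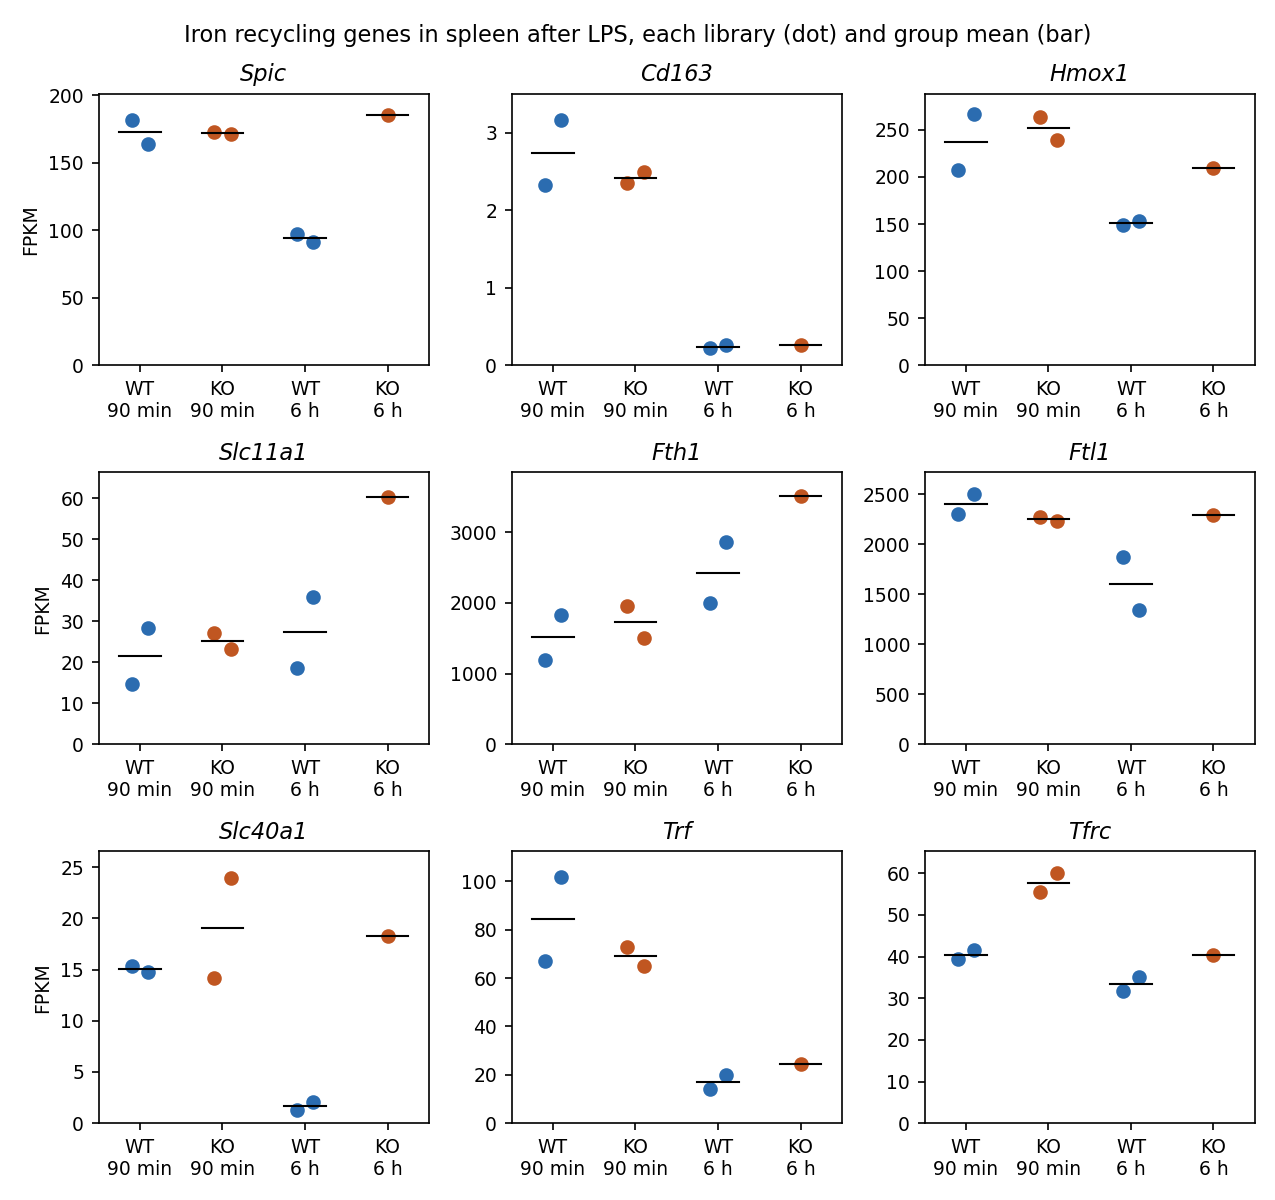
FPKM (vertical axes, linear, from 0) of the 9 iron recycling genes in each of the 7 libraries (dots) with the mean of each group (bars), for wild type (WT, blue) and GdX-/- (KO, orange) at 90 min and 6 h after LPS. Slc40a1 stood at 1.26 and 2.07 FPKM in wild type at 6 h and between 14.2 and 23.9 FPKM in the other 5 libraries, whereas Cd163 was low in all 3 libraries at 6 h.

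The first comparison asks how the pathway differed between 90 min and 6 h after LPS in wild-type spleen. Slc40a1, Trf, Cd163 and Spic were lower at 6 h past the threshold, 4 of the 9 genes, and none was higher past it. Of all 11378 genes tested, 6.32% were called lower, 4.39% higher and 10.7% in either direction. The share in either direction was 21.6% with the trend on transcript length removed and 3.54% with no filter on low values, 3.96% and 4.83% without replicate 1 or 2 at 90 min, and 13.3% and 15.6% without replicate 1 or 2 at 6 h. Without regard to the test, 7 of the 9 had both 6 h libraries below both 90 min libraries (27.6% of all genes), Fth1 had them above (30.3% of all genes), and Slc11a1 overlapped. The median log2 difference was -0.64 over the 9 genes and 0.052 over all genes tested.

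Slc40a1 (Entrez 53945, chr1:45908070-45926532) encodes ferroportin, the only known exporter of iron from vertebrate cells. In wild type it stood at 15.3 and 14.8 FPKM at 90 min and at 1.26 and 2.07 FPKM at 6 h. The 6 h libraries were far below, with means of 15.0 ± 0.389 and 1.67 ± 0.573 FPKM (SD, n = 2 each), a 9.03-fold difference. The log2 difference was -2.61 with a standard error of 0.33 (limma, adjusted p = 0.00330). The low values rest on about 86 and 140 fragments, against 932 to 1489 in the other 5 libraries.

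Trf (Entrez 22041, chr9:103208876-103230286) encodes transferrin, the iron carrier of plasma. It stood at 67.1 and 102 FPKM in wild type at 90 min and at 14.3 and 19.9 FPKM at 6 h. Both 6 h libraries lay well below both 90 min libraries, a 4.93-fold difference of the means of 84.4 ± 24.4 and 17.1 ± 3.95 FPKM (SD, n = 2 each). The log2 difference was -2.23 with a standard error of 0.29 (limma, adjusted p = 0.00365). Tfrc (Entrez 22042, chr16:32608896-32632794), the receptor that takes up iron-laden transferrin and whose 3′ UTR carries the 4 hairpins above, moved little. It stood at 39.3 and 41.5 FPKM at 90 min and at 31.6 and 35.0 FPKM at 6 h, a log2 difference of -0.27 with a standard error of 0.24 that did not pass (limma, adjusted p = 0.496).

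Cd163 (Entrez 93671, chr6:124304636-124330529) is the macrophage receptor for complexes of haemoglobin with haptoglobin. It stood at 2.32 and 3.16 FPKM in wild type at 90 min and at 0.22 and 0.26 FPKM at 6 h. The means differed by 11.4-fold, the largest ratio among the 9 genes, on few fragments: about 202 and 280 at 90 min and about 20 and 23 at 6 h. On the log2(FPKM + 1) scale, which compresses such low values, the difference was -1.58 with a standard error of 0.24 (limma, adjusted p = 0.00646). Hmox1 (Entrez 15368, chr8:75093618-75100593), the inducible heme oxygenase, stood at 208 and 266 FPKM at 90 min and at 149 and 153 FPKM at 6 h. The libraries did not overlap, but the log2 difference of -0.64 with a standard error of 0.25 did not pass (limma, adjusted p = 0.132).

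Spic (Entrez 20728, chr10:88675269-88683023) encodes Spi-C, the transcription factor that red pulp macrophages need and that heme induces. It stood at 181 and 164 FPKM in wild type at 90 min and at 97.2 and 91.5 FPKM at 6 h. Replicates were close and the times well apart, with means of 173 ± 12.3 and 94.4 ± 4.05 FPKM (SD, n = 2 each), a 1.83-fold difference. The log2 difference was -0.86 with a standard error of 0.23 and passed narrowly (limma, adjusted p = 0.0458). Leaving out any one of the 4 wild-type libraries or either GdX-/- library at 90 min ended the call, with a limma adjusted p between 0.0543 and 0.329, with its difference between -0.94 and -0.79.

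The 2 ferritin chains went opposite ways. Fth1 (Entrez 14319, chr19:9980600-9985111), the heavy chain with ferroxidase activity, stood at 1197 and 1833 FPKM in wild type at 90 min and at 1997 and 2860 FPKM at 6 h. Ftl1 (Entrez 14325, chr7:45457944-45459886), the light chain that favours core formation, stood at 2299 and 2504 FPKM at 90 min and at 1871 and 1339 FPKM at 6 h. In both the times did not overlap, the heavy chain being higher and the light chain lower at 6 h, but replicates differed widely. Neither difference passed: 0.69 with a standard error of 0.36 for Fth1 and -0.60 with a standard error of 0.32 for Ftl1 on the log2 scale (limma, adjusted p = 0.237 and 0.246). With the trend on transcript length removed, Ftl1 passed (limma, adjusted p = 0.0406).

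The ratio of the chains within a library does not depend on its scaling. Fth1 over Ftl1 was 0.521 and 0.732 in wild type and 0.861 and 0.676 in GdX-/- at 90 min. At 6 h it was 1.07 and 2.14 in wild type and 1.54 in GdX-/-. All 3 libraries at 6 h thus had the heavy chain above the light chain and all 4 at 90 min had it below. The log2 ratio differed by 1.15 between the times, with a two-sided exact permutation p of 0.0571, the smallest that 3 against 4 libraries allow, so the design could not reach 0.05. This ratio was taken up after the values of both chains had been seen.

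**Figure D2:**
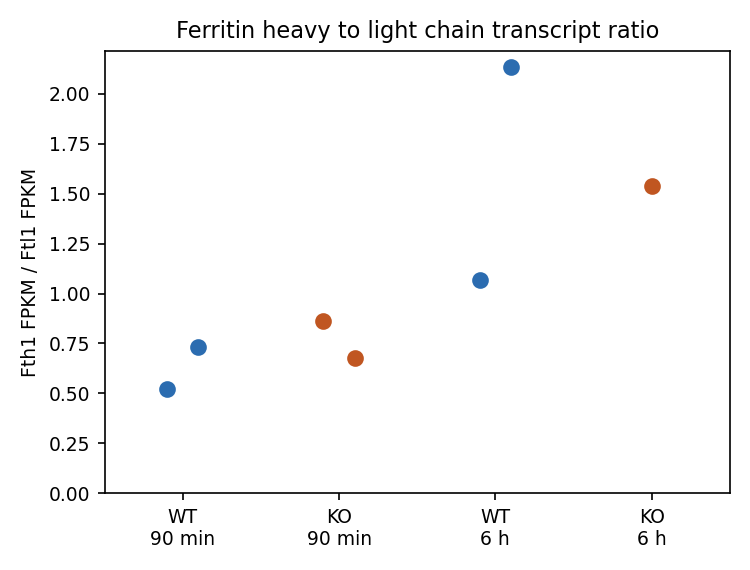
Ratio of Fth1 to Ftl1 FPKM (vertical axis, from 0) in each library (dots), wild type (WT, blue) and GdX-/- (KO, orange), by time after LPS. The 4 libraries at 90 min sit between 0.521 and 0.861, and the 3 at 6 h between 1.07 and 2.14.

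Slc11a1 (Entrez 18173, chr1:74375014-74386057) encodes Nramp1, which pumps metal ions out of the phagosome. In wild type it stood at 14.8 and 28.2 FPKM at 90 min and at 18.6 and 35.9 FPKM at 6 h. Here the replicates differed more than the times, and the log2 difference of 0.32 with a standard error of 0.39 did not pass (limma, adjusted p = 0.628). It turned negative, to -0.13 and -0.12, without replicate 2 at 6 h or replicate 1 at 90 min of wild type.

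Pooling the genotypes, with genotype as a covariate, left 2 of the 9 genes past the threshold, Trf and Cd163, both lower at 6 h. Over all genes tested 2.65% were called lower. Trf differed by -1.91 with a standard error of 0.25 and Cd163 by -1.53 with a standard error of 0.21 on the log2 scale (limma, adjusted p = 0.00578 and 0.00614). Slc40a1 (-1.57, standard error 0.46) did not pass here (limma, adjusted p = 0.0681), and Fth1 (0.83, standard error 0.27) did not either (limma, adjusted p = 0.0882). Slc40a1 did pass with quantile normalization (-1.59; limma, adjusted p = 0.0493), with the length trend removed (-1.69; limma, adjusted p = 0.0436) and without replicate 1 of GdX-/- at 90 min (-1.86; limma, adjusted p = 0.0477). Without the GdX-/- library at 6 h the effect of time rests on wild type alone, so that fit repeats the wild-type comparison.

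The same interval in GdX-/- spleen rests on 1 library at 6 h and is given as values. Trf stood at 72.8 and 65.2 FPKM at 90 min and at 24.7 FPKM at 6 h. Cd163 stood at 2.35 and 2.49 FPKM at 90 min and at 0.26 FPKM at 6 h. Both were thus lower at 6 h, by 2.79-fold and 9.31-fold, as they were in wild type. Slc40a1 stood at 14.2 and 23.9 FPKM at 90 min and at 18.3 FPKM at 6 h, inside the range of the 90 min pair. Spic stood at 173 and 171 FPKM at 90 min and at 185 FPKM at 6 h, slightly above both.

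Fth1 and Slc11a1 had higher values in the GdX-/- library at 6 h than in both at 90 min. Fth1 stood at 1953 and 1507 FPKM at 90 min and at 3513 FPKM at 6 h, and Slc11a1 at 27.1 and 23.1 FPKM at 90 min and at 60.2 FPKM at 6 h. The 6 h library was 2.03-fold above the mean of the pair for Fth1 and 2.40-fold for Slc11a1, but neither passed in a limma fit added after the data were seen (adjusted p = 0.601 and 0.513). At a fold of at least 2 on the log2(FPKM + 1) scale and outside the pair, 2 of the 9 genes were higher (4.09% of all genes) and 2 were lower (1.64% of all genes). Without replicate 2 of GdX-/- at 90 min 1 was higher (8.83% of all genes) and 2 were lower (2.91%). Ftl1 (2267 and 2229 against 2287 FPKM), Hmox1 (264 and 239 against 210 FPKM) and Tfrc (55.4 and 60.1 against 40.3 FPKM) stayed within 2-fold.

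Genotype was tested at 90 min, where both sides have 2 libraries. None of the 9 genes passed, against 0.0176% of all genes tested. None passed either without replicate 1 or 2 of wild type at 6 h or without replicate 2 at 90 min, where that share rose to 1.52%, 1.61% and 0.369%, without replicate 1 of either genotype at 90 min (0.114% for GdX-/-, 0.0527% for wild type), or with only the 4 libraries of 90 min in the fit (1.59%). At an unadjusted p under 0.05 in limma there was none either, against 7.58% of all genes. Log2 differences ran from -0.26 for Trf to 0.50 for Tfrc, with a median of 0.096 (0.071 over all genes) and limma adjusted p-values from 0.621 to 0.994. Tfrc was the 1 gene with both GdX-/- libraries (55.4 and 60.1 FPKM) above both wild-type libraries (39.3 and 41.5 FPKM), which 24.1% of all genes showed. Its log2 difference of 0.50 has a standard error of 0.24. Ftl1 had both GdX-/- libraries below both of wild type, which 23.4% of all genes showed, by -0.094 with a standard error of 0.32, and the other 7 overlapped. Spic stood at 173 and 171 FPKM in GdX-/- and at 181 and 164 FPKM in wild type, and its libraries interleaved.

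At 6 h the GdX-/- library lay above the mean of the wild-type pair for all 9 genes, and above both of its libraries for 8 of them, a position that 54.9% of all genes shared. This comparison has 1 library on one side. The count of 9 fell to 8 with quantile normalization and to 7 with the length trend removed, where Cd163 turned negative in both and Tfrc in the second. The median difference was 0.53 over the 9 genes and 0.32 over all genes on the log2 scale, and with quantile normalization 0.95 and -0.017.

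Slc40a1 was the largest. The GdX-/- library at 6 h held 18.3 FPKM against 1.26 and 2.07 FPKM in wild type, a 10.98-fold difference, or 2.87 on the log2(FPKM + 1) scale. Slc11a1 was next, at 60.2 FPKM against 18.6 and 35.9 FPKM, 2.21-fold above the mean of a pair that itself varied widely. Spic stood at 185 FPKM against 97.2 and 91.5 FPKM, 1.96-fold above a close pair. Past 2-fold on the log2(FPKM + 1) scale and above the pair were 2 of the 9 genes, Slc40a1 and Slc11a1, and 16.5% of all genes. The others were Fth1 (3513 against 1997 and 2860 FPKM), Ftl1 (2287 against 1871 and 1339), Hmox1 (210 against 149 and 153), Trf (24.7 against 14.3 and 19.9) and Tfrc (40.3 against 31.6 and 35.0), while Cd163 (0.26 against 0.22 and 0.26) matched the upper wild-type library.

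A limma contrast at 6 h can be had if the lone library is taken to vary as the replicated groups do, a fit chosen after the data were seen. Slc40a1 then passed, with a standard error of 0.41 (limma, adjusted p = 0.0145), as did 2.91% of all genes in that direction. Its limma adjusted p rose to 0.0589 with no filter on low values. Spic (standard error 0.29) and Slc11a1 (standard error 0.47) did not pass (limma, adjusted p = 0.0775 and 0.141). With the second wild-type library of 6 h left out, Slc11a1 passed as well (1.65; limma, adjusted p = 0.00721), in a fit that called 20% of all genes higher. Over both times, with time as a covariate, none of the 9 genes passed, against 0.0439% of all genes. Slc40a1, at 1.32 with a standard error of 0.46, was the 1 gene under 0.05 before adjustment, where 27% of all genes lay (limma, adjusted p = 0.122). Without replicate 1 of GdX-/- at 90 min Slc40a1 passed that fit at 1.75 (limma, adjusted p = 0.0392), but so did 14.7% of all genes.

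Whether the change with time differed between the genotypes was asked in the same added fit. For Slc40a1 the difference of the time effects was 2.59 with a standard error of 0.53 and did not pass (limma, adjusted p = 0.113), where 0.0703% of all genes did. It passed without replicate 1 or 2 of wild type at 6 h (limma, adjusted p = 0.0261 and 0.00613) and with the length trend removed (limma, adjusted p = 0.0476), where 1.49%, 2.09% and 0.403% of all genes passed. For Spic it was 0.97 with a standard error of 0.37 (limma, adjusted p = 0.401). Cd163 (0.14) and Tfrc (-0.23) had the smallest differences of the time effects. These contrasts share libraries with the ones above and add no separate evidence.

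**Figure D3:**
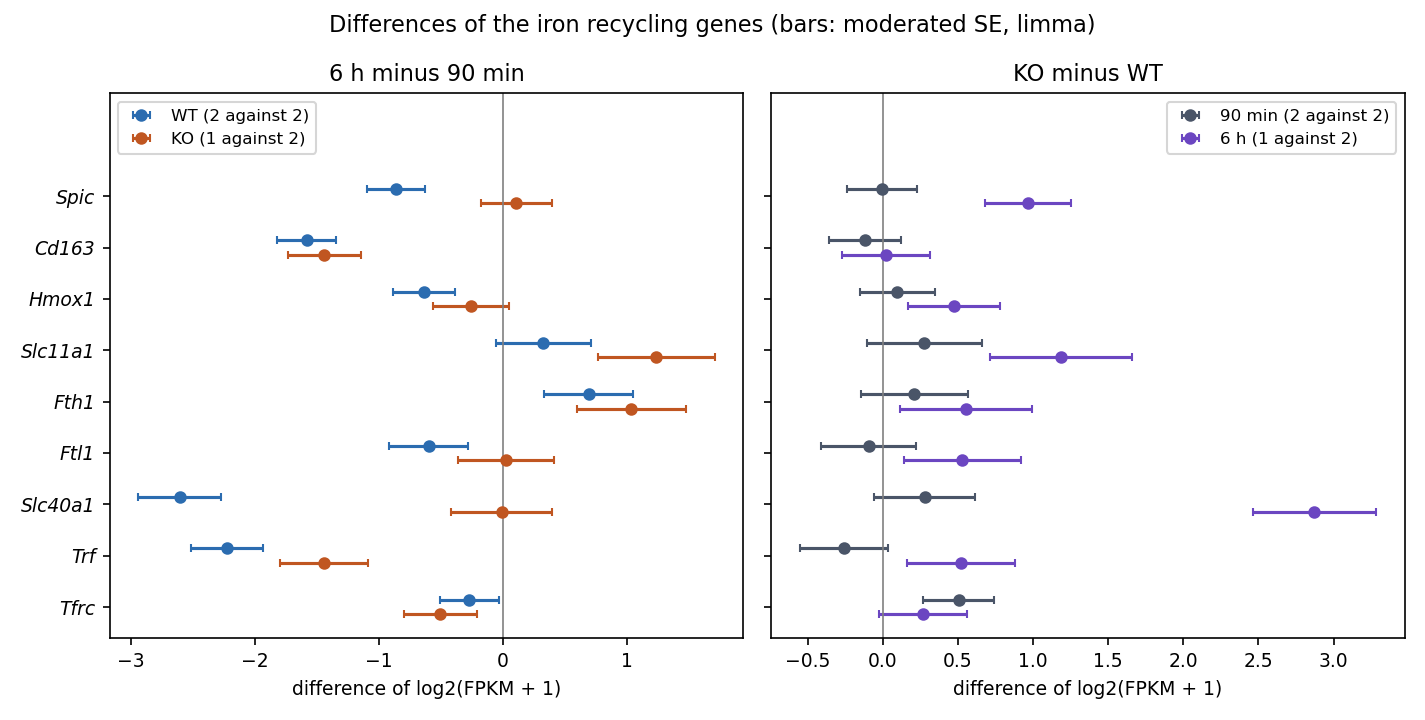
Differences of log2(FPKM + 1) (horizontal axes) for the 9 genes, 6 h minus 90 min in wild type (blue) and GdX-/- (orange) at left, GdX-/- minus wild type at 90 min (grey) and 6 h (purple) at right; bars are limma standard errors, and contrasts with the lone GdX-/- library at 6 h borrow their spread from the other groups. Slc40a1 stands at -2.61 in wild type and -0.011 in GdX-/- with time, while Cd163 stands at -1.58 and -1.44.

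The neighbouring steps of the pathway were followed through 3 lists of genes. Of 13 tested genes for heme and haemoglobin handling, 1 rose and 2 fell between 90 min and 6 h in wild type, where 10.7% of all genes were called. The 3 called genes became 7 with the length trend removed, where 21.6% of all genes were called, and 6 when the second wild-type library of 6 h was left out, where 15.6% were. Hp, which encodes haptoglobin, the plasma protein whose complexes Cd163 takes up, rose from 35.6 and 38.9 to 119 and 117 FPKM. Blvrb, a biliverdin reductase acting after heme oxygenase, fell from 179 and 169 to 60.0 and 48.2 FPKM (-1.67, standard error 0.25; limma, adjusted p = 0.00572). Bach1, the heme-sensing repressor of Hmox1, fell from 17.6 and 26.9 to 3.85 and 8.22 FPKM. With genotype as a covariate Hp differed by 1.39 (standard error 0.24) and Bach1 by -1.46 (standard error 0.30), both past the threshold (limma, adjusted p = 0.0142 and 0.0271). Bach1 lost this call under 4 of 14 alternatives, among them leaving out either wild-type library of 90 min (limma, adjusted p = 0.0542 and 0.0827), and Hp lost it with no filter on low values (limma, adjusted p = 0.0596).

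Of 15 tested genes of iron transport and storage, 1 rose and 1 fell in wild type, a share close to the 10.7% of all genes. The 2 called genes became 6 with the length trend removed, and 5 or 4 when the first or second wild-type library of 6 h was left out, settings that called 21.6%, 13.3% and 15.6% of all genes. Lcn2, which encodes the siderophore-binding lipocalin that denies iron to bacteria, rose from 103 and 118 to 476 and 629 FPKM (2.30, standard error 0.26; limma, adjusted p = 0.00197). Slc25a37, the mitochondrial iron importer of erythroblasts, fell from 73.9 and 70.6 to 23.5 and 20.4 FPKM (-1.68, standard error 0.25; limma, adjusted p = 0.00572). In the fit over both genotypes Ltf, which encodes the iron-binding lactoferrin of neutrophil granules, was lower at 6 h by -1.21 with a standard error of 0.25 (limma, adjusted p = 0.0255). That call was lost under 5 of 14 alternatives, with a limma adjusted p of up to 0.0964: no filter on low values, and leaving out the GdX-/- library at 6 h, replicate 2 of wild type at 6 h or either wild-type library of 90 min. Of 12 tested genes of iron regulation none passed in wild type with time, where 10.7% of all genes did. With no filter on low values, quantile normalization or the length trend removed 1 passed, where 3.54%, 12% and 21.6% of all genes did. A block for replicate number called 2 (20.6% of all genes), and leaving out replicate 1 of GdX-/- at 90 min called 1 (9.54%). Hamp, which encodes hepcidin, held at most 6.49 FPKM in any library and was listed at 0 in the GdX-/- library at 6 h. Its genotype difference with time as a covariate was -1.24 with a standard error of 0.45, and that of Fbxl5, part of the ligase that degrades an iron regulatory protein, was 0.46 with a standard error of 0.26 (limma, adjusted p = 0.126 and 0.279). Hamp passed without replicate 1 of GdX-/- at 90 min (-1.77; limma, adjusted p = 0.0230), a fit that called 14.7% of all genes.

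None of the genes of these 3 lists passed for genotype at 90 min or with time as a covariate. In the GdX-/- library at 6 h, Blvrb held 145 FPKM against 60.0 and 48.2 FPKM in wild type and Slc25a37 held 71.4 FPKM against 23.5 and 20.4 FPKM. Lcn2, at 322 FPKM against 476 and 629 FPKM, and Hp, at 95.8 FPKM against 119 and 117 FPKM, lay below the wild-type pair.

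A further list held 17 other genes of red pulp macrophages, all tested. With time in wild type 6 of them fell and none rose past the threshold, where 6.32% of all genes were called lower and 4.39% higher. Without regard to the test 14 of the 17 were lower and 3 higher, with a median log2 difference of -0.88 (0.052 over all genes). Vcam1, an adhesion molecule of these cells, fell from 173 and 182 to 24.5 and 33.3 FPKM (-2.59, standard error 0.26; limma, adjusted p = 0.00129). Cd5l, a secreted macrophage protein, fell from 33.7 and 33.1 to 8.36 and 6.37 FPKM (-2.05, standard error 0.26; limma, adjusted p = 0.00328). Pparg, a nuclear receptor, and Gdf15, a stress cytokine, differed by -1.29 and -2.13 (limma, adjusted p = 0.0149 and 0.0322), where Pparg lost its call without replicate 2 of wild type at 90 min (limma, adjusted p = 0.1002) and Gdf15 with no filter on low values or quantile normalization (limma, adjusted p = 0.125 and 0.0768). No filter on low values, or leaving out the second wild-type library of 90 min, left 3 called genes in this list. Summed FPKM over the 17 genes was 1243 and 1334 in wild type and 1128 and 917 in GdX-/- at 90 min, and 890 and 784 in wild type and 1372 in GdX-/- at 6 h.

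In that 6 h comparison of the genotypes all 17 were higher in the GdX-/- library, also with quantile normalization, with globin left out of the scaling and with the length trend removed. Their median was 0.95 (0.32 over all genes), and 8 of them were past 2-fold and above the pair, as were 16.5% of all genes. Lists of other cells were higher in the same library too: all 12 erythroid, all 6 B cell (5 with the length trend removed) and all 6 T cell genes, with medians of 2.10, 1.51 and 1.10. So were 6 of 8 neutrophil and 5 of 6 monocyte genes (medians 1.63 and 1.05), and 3 of 5 of marginal zone macrophages (0.58). With quantile normalization or the length trend removed 4 monocyte genes were higher. Higher here means above the mean of the wild-type pair on the log2(FPKM + 1) scale. Cd5l held 50.1 FPKM against 8.36 and 6.37 FPKM, Pparg 2.75 FPKM against 0.31 and 0.36 FPKM, and Vcam1 55.6 FPKM against 24.5 and 33.3 FPKM. None of the 17 was called for genotype at 90 min.

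Lists of markers of other cells were read against the 6.32% of all genes called lower with time in wild type. Of 12 erythroid genes 11 fell with time in wild type, among them Rhd (-2.58, standard error 0.24) and Trim10 (-2.16, standard error 0.28; limma, adjusted p = 0.000943 and 0.00338). With no filter on low values 2 of the 12 were called, where 3.54% of all genes were, in either direction. With 1 library left out Rhd ran from -2.59 to -2.57 and Trim10 from -2.39 to -1.93. The summed FPKM of the 12 genes at 90 min was 598 and 717 in wild type and 1385 and 1173 in GdX-/-. At 6 h it was 190 and 279 in wild type and 739 in GdX-/-. At both times the GdX-/- libraries were the higher, as they were for Tfrc. Of 6 B cell genes 1, Cd79a, fell in wild type (2 and 3 were called without the first or second wild-type library of 6 h, where 13.3% and 15.6% of all genes were). The summed FPKM of the 6 was 1351 to 1458 in wild type and 1193 to 2104 in GdX-/- at 90 min, then 500 to 557 in wild type and 1814 in GdX-/- at 6 h, the order seen for Slc40a1. Of 6 T cell genes 4 fell (1 without either wild-type library at 90 min), among them Cd3g (-1.85; limma, adjusted p = 0.00734).

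Of 5 genes of marginal zone macrophages and 8 of neutrophils none passed in wild type with time, though 2 of the 5 did when the second wild-type library of 6 h was left out, and 1 of the 8 when the first of 6 h or the second of 90 min was, fits that called 15.6%, 13.3% and 4.83% of all genes against 10.7% with all libraries. Of 6 monocyte genes 1, Fn1, fell narrowly (limma, adjusted p = 0.0452) and lost the call under 9 of 14 alternatives. Over both genotypes Marco, a scavenger receptor of the marginal zone, was higher at 6 h (1.30; limma, adjusted p = 0.0385) and the neutrophil granule gene Camp lower (-1.68; limma, adjusted p = 0.0321). Neither call was stable: Marco lost it under 9 of 14 alternatives (limma, adjusted p up to 0.130, without the GdX-/- library at 6 h) and Camp under 6 of 14 (up to 0.106, with no filter on low values). The summed neutrophil genes lay between 800 and 1266 FPKM in 5 libraries and stood at 4854 FPKM in replicate 2 of GdX-/- at 90 min and at 2636 FPKM in the GdX-/- library at 6 h. Of 6 cell cycle genes 1, Mki67, fell (-1.72; limma, adjusted p = 0.00810), and 2 were called without the first wild-type library of 6 h, where 13.3% of all genes were. None of these lists had a called gene for genotype at 90 min or with time as a covariate. Neither is a comparison at 6 h alone. There the list medians in the single GdX-/- library ran from 0.58 (marginal zone macrophages) to 2.10 (erythroid) above wild type on the log2 scale. The part of other cell types in the levels of the 9 genes was not tested.

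**Figure D4:**
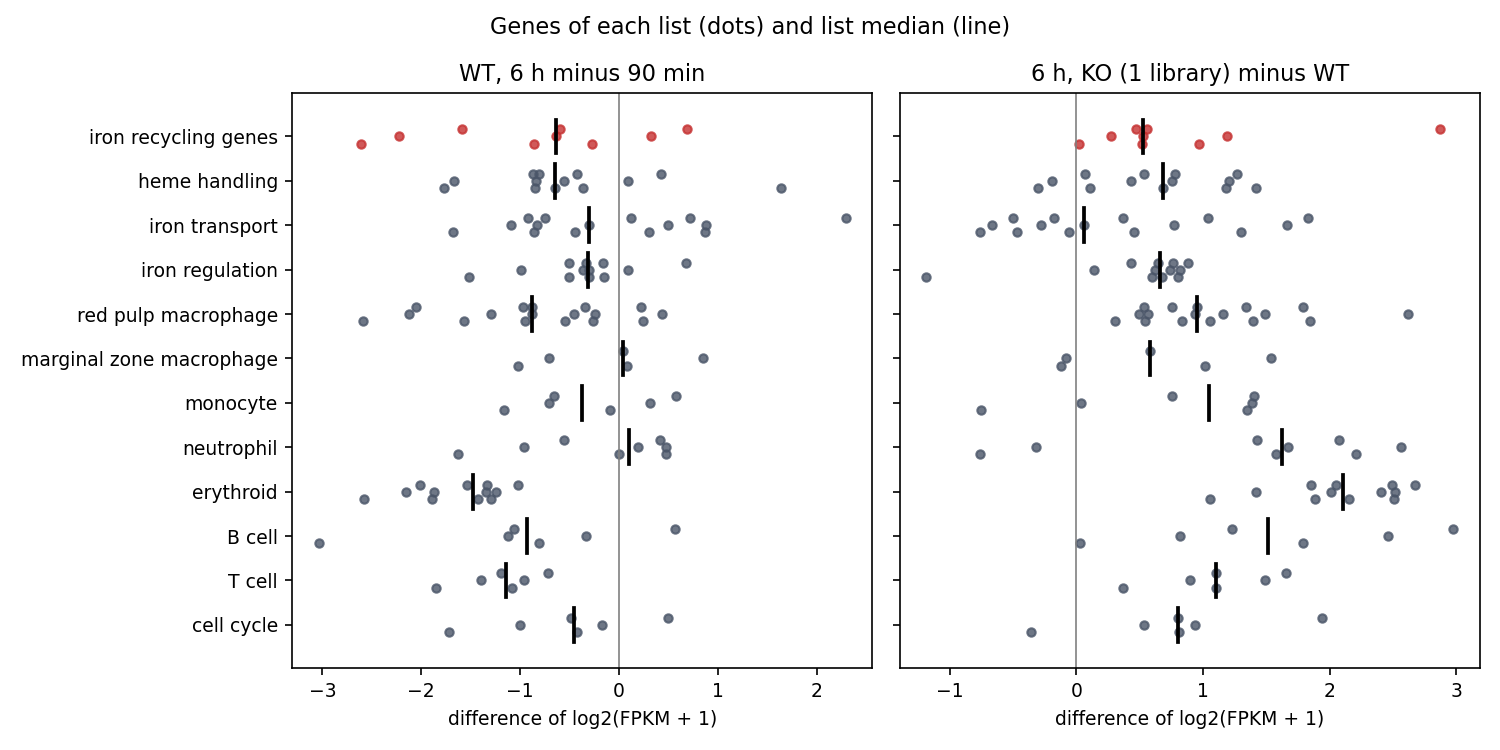
Differences of log2(FPKM + 1) (horizontal axes) of the genes (dots) of the 9 iron recycling genes (red) and 11 other lists (grey), with the median of each list (line), for 6 h minus 90 min in wild type at left and for the GdX-/- library minus wild type at 6 h at right. The red pulp macrophage list has medians of -0.88 and 0.95, the iron recycling genes -0.64 and 0.53.

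Profiles were then compared gene by gene as the root mean square difference of log2(FPKM + 1) over the 7 libraries, each centred on its own mean. Among the 9 genes, Hmox1 and Ftl1 (0.19), Hmox1 and Tfrc (0.20), Spic and Ftl1 (0.21) and Spic and Hmox1 (0.21) were the closest pairs. Slc11a1 lay closest to Fth1 (0.26), both at their highest in the GdX-/- library at 6 h, and Cd163 to Trf (0.29), both low at 6 h in either genotype. Over all genes, the profiles nearest to Spic were those of Fah, Nrp1 and Colq (0.0825, 0.0930 and 0.0947). Nearest to Cd163 were Pim2, Tfec and Elovl6 (0.112, 0.161 and 0.179), and nearest to Hmox1 were Igf2, Clybl and Mboat1 (0.0801, 0.0826 and 0.0904).

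The profiles nearest to Slc40a1 were Itgb7, Acap1 and Atp2a3 (0.130, 0.151 and 0.174). Itgb7, an integrin chain of lymphocytes, stood at 5.92 and 6.63 FPKM in wild type at 6 h and between 46.5 and 73.9 FPKM in the other 5 libraries, and so showed the pattern of ferroportin at a higher level. Nearest to Tfrc were Hpgds, Treml2 and Mtfr1 (0.0958, 0.0962 and 0.107). Only 7 libraries enter each of these measures, and they share libraries that are high or low for many genes.

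Promoter windows, the 250 bases before each RefSeq start on GRCm38.p6, were read for 6 of the 9 genes. Those of Slc40a1, Hmox1 and Trf were not analysed here. Some start sites lie inside the gene span given above: that of Cd163 is 15 bases and that of Slc11a1 189 bases after the first base of the gene, so the match in Slc11a1 begins 37 bases into that span. The windows of Spic and Cd163 are printed because both genes fell with time in wild type, and that of Slc11a1 because it holds a match. Capitals mark matches, here the PU box GAGGAA, a core bound by PU.1 and its relative Spi-C, and each window runs 5′ to 3′ on the strand of its gene.
Spic, chr10:88683024-88683273, minus strand: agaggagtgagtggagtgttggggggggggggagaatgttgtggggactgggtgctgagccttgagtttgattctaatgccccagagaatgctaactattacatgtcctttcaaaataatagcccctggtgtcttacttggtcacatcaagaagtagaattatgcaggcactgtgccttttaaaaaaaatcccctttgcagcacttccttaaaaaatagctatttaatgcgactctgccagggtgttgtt
Cd163, chr6:124304401-124304650, plus strand: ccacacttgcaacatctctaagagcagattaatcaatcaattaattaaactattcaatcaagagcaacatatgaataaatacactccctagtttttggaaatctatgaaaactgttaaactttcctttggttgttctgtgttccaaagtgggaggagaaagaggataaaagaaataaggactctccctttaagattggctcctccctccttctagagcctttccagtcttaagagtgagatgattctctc
Slc11a1, chr1:74374953-74375202, plus strand: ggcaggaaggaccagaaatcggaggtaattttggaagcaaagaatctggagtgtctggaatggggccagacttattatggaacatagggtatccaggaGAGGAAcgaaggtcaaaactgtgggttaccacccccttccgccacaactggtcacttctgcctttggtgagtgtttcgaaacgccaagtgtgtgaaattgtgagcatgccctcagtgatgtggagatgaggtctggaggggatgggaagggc
Each window was searched on both strands for GAGGAA, for the antioxidant response core TGACNNNGC, for the E box CACGTG, for a STAT core TTCNNNGAA and for a C/EBP core TTGCNNAA. Over all 32851 windows of that length, 23.3%, 10.2%, 6.02%, 7.02% and 9.56% held a match, in that order. Spic, Cd163, Ftl1 and Tfrc held none of the 5, Slc11a1 held 1 GAGGAA starting 152 bases before the start site used, and 1 of the 2 windows of Fth1 held 2 C/EBP cores.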

How the data were processed

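Spleen RNA was selected with oligo dT or depleted of rRNA (the labels' protocols name both) and read on the BGISEQ-500 platform. The authors deposited FPKM values to 2 decimals, 1 column for each library. The submitters' processing notes name HISAT, HISAT2 2.0.4, Bowtie2, RSEM and the build GRCm38.p5, without their roles or order. Reads that fit several genes, as those of ferritin copies may, could be shared between them, and the handling of such reads is not given in the sources used here.

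After conversion to log2(FPKM + 1), the 11378 genes whose mean reached 1 FPKM were fitted in limma 3.58.1 (R 4.3.3) with a trend on mean expression. Genotype at 90 min and time in wild type were contrasts in a fit of the 4 groups, and the pooled comparisons were additive fits of genotype and time. P-values are two-sided and adjusted by the Benjamini-Hochberg method over all genes tested. Comparisons with the single GdX-/- library at 6 h were described by a difference of at least 2-fold lying outside the pair, and a limma contrast was added after the data were seen. Depth was estimated from the steps of low FPKM values of genes with 1 transcript. Simulated data served as a check, with 11378 genes of which 200 were given a log2 change of 2. Time in wild type recovered 60.5% of these with 3 false calls, and genotype at 90 min 65.5% with 5. The additive fits recovered more, with more false calls: 88.5% and 12 for time, 89% and 17 for genotype. These counts describe simulated noise only. False calls among the real libraries, whose replicates differed along transcript length, were not measured.

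The members and lists were chosen with earlier results of these data known. Named were the 9 members, up to 4 genes of each list past the threshold in any tested comparison (smallest p first) or else the 2 with the largest genotype difference, and the 3 nearest profiles of 5 members. Fixed alternatives were another pseudocount, other filters on low values, quantile normalization, scaling without globin, removal of the length trend, a fit of only the libraries compared, a replicate block, and each library left out. Of the listed genes, Flvcr1, Flvcr2 and Fthl17a were not analysed here. Gene positions are those of RefSeq on GRCm38.p6, and the hairpins come from GENCODE annotation of GRCm38.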

Additional observations from a re-analysis of the deposited data

Results flagged for a closer look

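Spic moved in opposite directions with time in the 2 genotypes: both wild-type libraries at 6 h lay below both at 90 min, and the GdX-/- library at 6 h lay above both of its 90 min libraries. The step in GdX-/-, from 1 library at 6 h, was 0.11 on the log2 scale (added limma fit, adjusted p = 0.916), and it turned to -0.15, the direction of wild type, with the length trend removed. The time effects differed by 0.97 on the log2 scale. In the added limma fit this difference did not pass (adjusted p = 0.401), and it was between 0.80 and 1.05 under the 13 alternatives.

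Ftl1 did the same, lower with time in wild type and slightly higher in GdX-/-, with a difference of the time effects of 0.62. The step in GdX-/- was 0.024 on the log2 scale and turned to -0.0229 with scaling without globin and to -0.17 with the length trend removed. Seen by genotype, the GdX-/- libraries lay below wild type at 90 min and above it at 6 h, which is the same difference of 0.62. The 90 min difference of -0.094 (standard error 0.32) turned positive with quantile normalization, with scaling without globin and with the length trend removed (0.24, 0.12 and 0.16). The added limma fit did not call the difference of the time effects (adjusted p = 0.780). The step upwards in GdX-/-, from 2267 and 2229 to 2287 FPKM, is small beside the gap between the wild-type libraries at 6 h.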

How the results depend on the processing

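Of the 4 falls called in wild type with time, those of Slc40a1, Trf and Cd163 were called under every alternative that tested them, with log2 differences from -3.14 to -2.38, -2.52 to -1.93 and -3.05 to -1.42. Spic lost its call under 8 of 15. With genotype as a covariate 2 members were called, where 5.44% of all genes were. The count became 1 with a mean of at least 5 FPKM, which leaves Cd163 untested (5.89% of all genes). It was 3 with quantile normalization and 3 with the length trend removed (7.76% and 10.7% of all genes). With 1 library left out it ran from 2 to 4, where 1.35% to 10.6% of all genes were called. Both were highest without the GdX-/- library at 6 h, where time rests on wild type alone. The genotype count with time as a covariate was from 0 to 1 with 1 library left out (1 without replicate 1 of GdX-/- at 90 min, where 14.7% of all genes were called). Members past 2-fold for genotype at 6 h numbered 4 with quantile normalization and 1 with the length trend removed, where 8.36% and 8.33% of all genes were that much higher. For time in GdX-/- 2 were left with the length trend removed, both lower, and none was higher. Over all genes 2.99% were then lower and 1.96% higher. Quantile normalization moved the median genotype difference of all genes, with time as a covariate, from 0.16 to -0.0070.

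Small differences changed sign. For genotype at 90 min Spic came to 0.21 with quantile normalization, 0.20 with scaling without globin and 0.063 with the length trend removed, Ftl1 to 0.24, 0.12 and 0.16 in that order, and Cd163 to 0.034 with scaling without globin. With 1 library left out, the genotype difference at 90 min ran from -0.077 to 0.068 for Spic, -0.28 to 0.043 for Cd163, -0.084 to 0.28 for Hmox1, -0.17 to 0.72 for Slc11a1, -0.096 to 0.52 for Fth1, -0.078 to 0.63 for Slc40a1 and -0.56 to 0.037 for Trf. With time as a covariate Cd163 came to 0.067 with scaling without globin and Trf to -0.10 with the length trend removed, and with 1 library left out the ranges were -0.0045 to 0.52 for Spic, -0.13 to 0.033 for Cd163, -0.094 to 0.25 for Ftl1 and -0.26 to 0.28 for Trf. Slc11a1 with time in wild type ran from -0.13 to 0.78. In the added fit of time in GdX-/-, Slc40a1 ran from -0.37 to 0.34 and came to 0.17 with the replicate block, and Spic came to -0.15 with the length trend removed. The cause was not tested.

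Deviations of replicate 1 from replicate 2 correlated across genes at 0.77 between the 2 wild-type groups. Between GdX-/- at 90 min and wild type they correlated at -0.12 (90 min) and 0.080 (6 h). The replicate numbers of the titles thus did not pair the libraries over all groups, though the wild-type groups shared a deviation. The replicate block left 4, 2, 0 and 0 called members in the 4 tested comparisons, as without it, and moved the count of all genes called with time in wild type from 1218 to 2345 and for genotype with time as a covariate from 5 to 12. In the added fits it called 29.7% of all genes for genotype at 6 h and 3 of the 9 members, bringing Spic and Slc11a1 to limma adjusted p-values of 0.0440 and 0.0316, and it brought the difference of the time effects of Slc40a1 to 0.0413. Depth limits Cd163 most, with about 20 to 23 fragments at 6 h.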
